A study of Homo sapiens with 4 samples.

Results

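The replication-dependent histone genes were described here across 4 Affymetrix Human Clariom S arrays of HeyA8-MDR, a human ovarian carcinoma cell line selected for multidrug resistance. A feature of the array was a member if its platform gene symbol named a linker histone from H1-1 to H1-6 or began with H2AC, H2BC, H3C or H4C and a number. This gave 61 features with 61 distinct symbols, out of 21448 features in all. They comprised 6 linker histone H1 features, 14 of H2A, 17 of H2B, 9 of H3 and 15 of H4. RefSeq lists 70 protein-coding genes under the same symbols, and 9 of them (H2AC7, H2AC16, H2AC17, H2BC12L, H2BC15, H3C4, H3C12, H3C14 and H3C15) had no named feature here.

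The miR204 group held 2 arrays of cells given an inhibitor of miR-204-5p, an antisense oligonucleotide that binds the mature microRNA, and the control group held 2 arrays of cells given a control inhibitor. All cells were kept with 15% serum and 300 ng/ml paclitaxel. The groups rest on the sample titles and the series' design text, because the note on treatment gives the same inhibitor of miR-204-5p for all 4 arrays. Whether the 2 arrays of a group came from separate cultures is not stated, so a p-value reflects array-to-array spread that may be purely technical, and the number of arrays limits the precision. The level of miR-204-5p was not analysed here. The microRNA that the inhibitor was made against is shown with its seed, bases 2 to 8, in capitals (RefSeq, GRCh38.p14, chr9:70810031-70810052, minus strand).
hsa-miR-204-5p: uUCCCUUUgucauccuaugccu

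Histone proteins package DNA into nucleosomes, whose core holds H2A, H2B, H3 and H4, while H1 binds the linker DNA between cores. Replication-dependent histone genes sit in clusters, are transcribed in S phase when new DNA has to be packaged, and give short intron-less messenger RNAs that end in a stem-loop instead of a poly(A) tail. NPAT switches these genes on at the histone locus body, and the stem-loop binding protein SLBP guides the processing of their transcripts. Many of the genes encode the same or nearly the same protein and have close copies, so a probe set may also read its neighbours and a single member is less certain than the group.

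Values are the deposited log2 expression values, and a difference is always the mean of the miR204 arrays minus the mean of the control arrays. Array medians were 5.59 and 5.61 in the miR204 arrays and 5.65 and 5.68 in the control arrays, and the spread of values was smaller in the miR204 arrays (SD 2.08 and 2.13, against 2.20 and 2.21 in the control arrays). The median difference of all features was -0.07, and bright features lay lower than dim ones, with a median of -0.165 over the 10715 features above the median level. Of 12 carcinoma epithelium markers, 10 had a difference below 0 (median -0.24), against 59.2% of all features. At an unadjusted p under 0.05, 4 were lower, against 12.8% of all features: WT1 (-0.555), KRT7 (-0.4), CLDN3 (-0.435) and MUC16 (-0.385). The mean level of that list was 6.44 and 6.40 in the miR204 arrays and 6.60 and 6.70 in the control arrays. Of 6 mesenchymal markers, 3 had a difference below 0 and 3 had one above 0, with a median of -0.048. SNAI2 (0.44) and FN1 (0.375) were higher at an unadjusted p under 0.05, against 5.11% of all features. ZEB1 (-0.335) was lower, and this 1 of 6 compares with 12.8%. Both miR204 values lay below both control values in 3 of the 6, ZEB1, CDH2 (-0.305) and VIM (-0.255), and above both in 2, SNAI2 and FN1. The 6 had a mean level of 9.51 and 9.59 in the miR204 arrays and 9.53 in both control arrays. The keratins KRT8 and KRT18, the ovarian lineage factor PAX8 and the mesenchymal filament VIM were bright, with values from 8.31 to 12, whereas EPCAM and CDH1, the defining surface proteins of epithelium, had values from 2.72 to 3.87, within the dimmest 25% of features (mean level up to 3.965). Of 7 endothelial markers 1 was lower at an unadjusted p under 0.05, CDH5, with 7.01 and 7.03 in the miR204 arrays and 8.13 and 8.06 in the control arrays, and the mean level of that list was 5.05 and 5.04 in the miR204 arrays and 5.11 in both control arrays. That 1 of 7 is 14.3%, near the 12.8% of all features. All 5 measured leukocyte markers had a difference above 0 (median 0.29), against 40.2% of all features. Of these markers 1, LAPTM5, was higher at an unadjusted p under 0.05, against 5.11%. Their mean level was 5.27 and 5.15 in the miR204 arrays and 4.96 and 4.94 in the control arrays. Among them PTPRC, the pan-leukocyte marker, lay between 2.77 and 3.03, and CD68 between 8.30 and 8.55. The part of these marker differences in the histone values was not tested. The drug efflux pump ABCB1 had 7.67 and 7.55 in the miR204 arrays and 7.68 and 7.77 in the control arrays.

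Histone genes had lower values in the miR204 arrays across all 5 types. Of the 61 features, 56 had a difference below 0, against 59.2% of all features, and 5 had one above 0, against 40.2%. Their median difference was -0.42, against -0.07 over all features, which is 1.34-fold lower. A difference below -0.5 was seen in 22 members, against 6.55% of all features. For 50 members both miR204 values lay below both control values, against 33.8% of all features, and for 0 members both lay above, against 16.5%. In limma, a linear model that shares variance information across features, 35 members were lower at an unadjusted p under 0.05, or 57.4%. This compares with 12.8% of all features. At that threshold 0 members were higher, against 5.11%. Most members were bright, with 46 of 61 above the median level. Of all features above that level, 73.9% had a difference below 0 and 50.6% had both miR204 values below both control values. The share lower at an unadjusted p under 0.05 was 19.5% there. Shares of all features given below are not matched for level unless stated. No member passed an adjusted p of 0.05 (Benjamini-Hochberg over 21448 features), a threshold that 0.0513% of all features passed and that 0 features passed in the lower direction. The lowest adjusted p among the members was 0.072.

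The number of members past that threshold depended on the variance prior, the filter on level and the scaling of the arrays. With a variance prior that follows the level of a feature, 29 of the 61 members passed an adjusted p of 0.05 as lower, against 6.09% of all features. Over the features above the median level, 22 of 46 members passed, against 8.17%. With quantile normalization and the level-dependent prior together, 18 of 61 passed, against 1.19%. The same 14 members passed in all 3 of these settings, which use the same arrays and are not independent. The share of all features that passed in all 3 was not counted, so this overlap has no background beside it. With quantile normalization alone 0 members passed, and 24 were lower at an unadjusted p under 0.05, against 7.1% of all features. With cyclic loess these counts were 0 and 21, against 6.93%. Over features above the 25th percentile of level 1 member passed, H2BC14, against 0.0622%, and without moderation 1 other passed, H2BC4, whose values were equal within each group, against 0.00932%. When 1 array was left out 0 members passed, and the number lower at an unadjusted p under 0.05 was 32 without miR204 array 1 (12.4% of all features), 33 without miR204 array 2 (17.5%), 16 without control array 1 (4.3%) and 14 without control array 2 (2.72%).

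**Figure D1:**
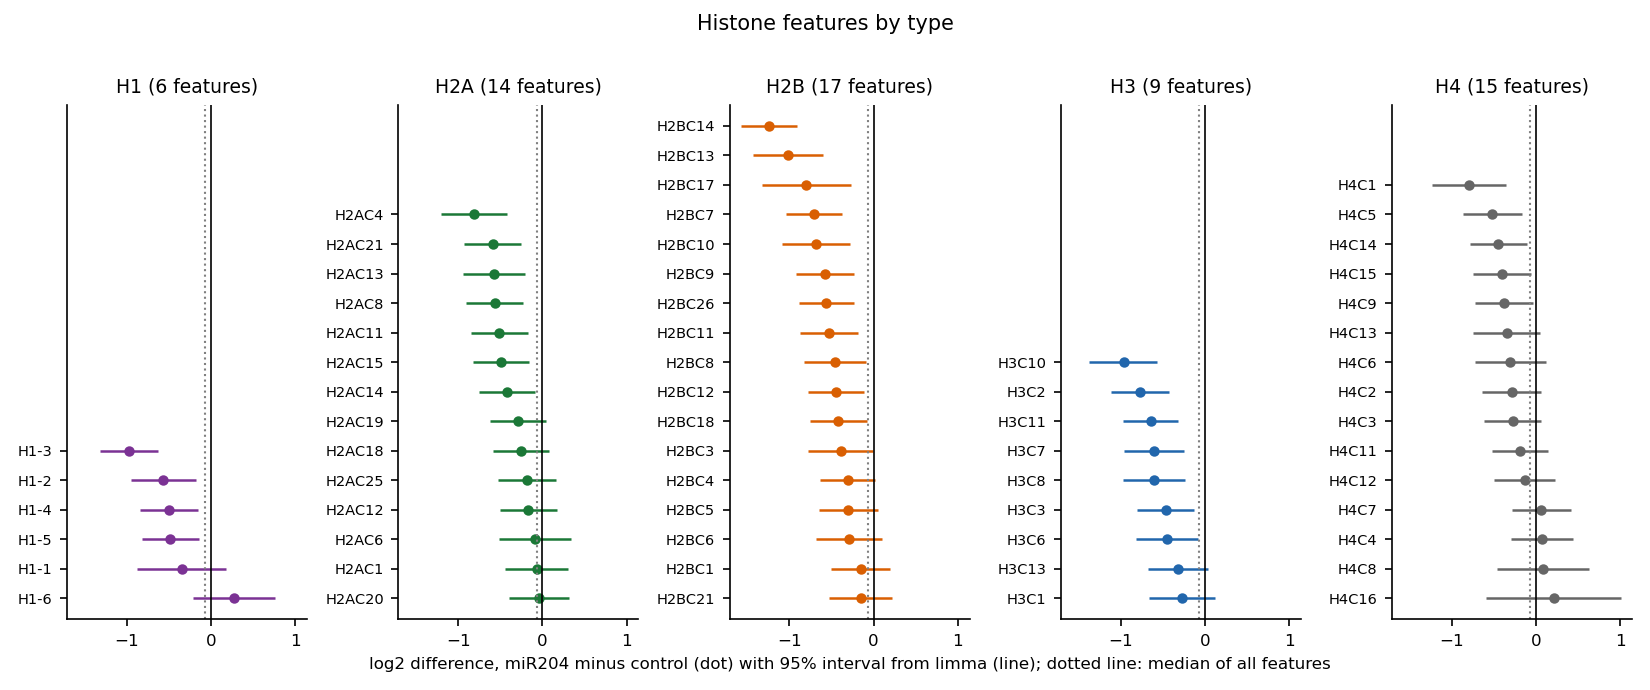
Difference in log2 expression, miR204 minus control, for each of the 61 histone features, in a panel per histone type, with the 95% interval from limma. Most points lie left of the dotted line at -0.07, the median of all features, and H2BC14 lies farthest left at -1.245.

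The arrays of a group lay close together for most members. The median gap between the replicate arrays was 0.11 in the miR204 group and 0.1 in the control group over the members, against 0.21 and 0.13 over all features. Averaged over the 61 members, the values were 7.53 and 7.55 in the miR204 arrays and 7.96 and 7.95 in the control arrays. In 11 members the miR204 arrays were more than 0.3 apart, and in 1 member the control arrays were. The widest gap, 1.13, was that of H4C16 in the miR204 arrays.

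The H2B genes, which encode a core histone that pairs with H2A, held the member with the largest difference. H2BC14 (feature TC0600007377.hg.1) had 9.26 and 9.31 in the miR204 arrays, against 10.54 and 10.52 in the control arrays. The groups were far apart for it relative to the gap between replicates. Its difference was -1.245 (SE 0.139, 95% interval -1.58 to -0.914), or 2.37-fold lower, with an adjusted p of 0.072 in limma. Among all features with a negative difference it had the smallest p. H2BC14 passed an adjusted p of 0.05 in limma in 4 of the 14 alternatives. Among these were the level-dependent prior (1.9e-05) and the features above the 25th percentile of level (0.0313). It did not pass with quantile normalization alone (difference -1.043, adjusted p 0.129) or with cyclic loess (-1.031, adjusted p 0.12). Nor did it pass with the replicate block (adjusted p 0.322) or when 1 array was left out.

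H2BC13, another H2B gene of the same chromosomal group, had 5.61 and 5.96 in the miR204 arrays and 6.72 and 6.89 in the control arrays. Its difference was -1.02 (SE 0.174), or 2.03-fold lower. For H2BC7 the values were 8.13 and 8.22 in the miR204 arrays and 8.89 and 8.88 in the control arrays, a difference of -0.71 (SE 0.141). In both genes the groups did not overlap. H2BC10 had 7.69 and 8.04 in the miR204 arrays and 8.50 and 8.60 in the control arrays, and differed by -0.685 (SE 0.17). H2BC26, which lies apart from the main clusters on chromosome 1, had 5.92 in both miR204 arrays, against 6.51 and 6.45 in the control arrays (difference -0.56, SE 0.139). All 17 H2B features had a difference below 0, against 59.2% of all features, with a median of -0.46. Of these, 12 were lower at an unadjusted p under 0.05, against 12.8%, and 16 had both miR204 values below both control values, against 33.8%. The exception to the separation was H2BC21, with 8.18 and 8.45 in the miR204 arrays and 8.45 and 8.49 in the control arrays. Its difference of -0.155 became 0.044 after quantile normalization. H2BC1, the testis form of H2B, lay among the dimmest 25% of features at 2.46 to 2.75.

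Some H2B genes have a longer gene model in RefSeq, since they can also give spliced or polyadenylated transcripts, and this split was made after the values had been seen. The 5 H2B genes whose model spans over 1 kb (H2BC4, H2BC5, H2BC12, H2BC18 and H2BC21) had a median difference of -0.31 and a range of -0.445 to -0.155. The other 12 had a median of -0.57 and a range of -1.245 to -0.155. Over all members the medians were -0.4 for the 7 genes with a long model and -0.455 for the other 54, so the split seen in H2B was small over the whole set. The difference between these subsets was not tested.

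Linker histones compact the fiber of nucleosomes. H1-3 had 6.77 and 6.88 in the miR204 arrays, against 7.74 and 7.86 in the control arrays. This was the second-lowest p among the members, with a difference of -0.975 (SE 0.145, 95% interval -1.32 to -0.629), 1.97-fold lower and an adjusted p of 0.12 in limma. H1-2 had 7.65 and 7.91 in the miR204 arrays and 8.44 and 8.26 in the control arrays, a difference of -0.57 (SE 0.163). The abundant forms H1-4 and H1-5 differed by -0.5 (SE 0.144) and -0.485 (SE 0.144), and neither had overlapping groups. H1-4 had 11.28 and 11.16 in the miR204 arrays and 11.68 and 11.76 in the control arrays, and H1-5 had 11.25 and 11.36 in the miR204 arrays and 11.74 and 11.84 in the control arrays. In 4 of the 6 H1 features both miR204 values lay below both control values, against 33.8% of all features. For the remaining H1 genes the groups overlapped. H1-1 had 4.89 and 4.29 in the miR204 arrays and 4.83 and 5.05 in the control arrays, a difference of -0.35 (SE 0.222), which was -0.65 without miR204 array 1 and -0.05 without miR204 array 2. H1-6, the testis linker histone, had 5.07 and 4.68 in the miR204 arrays and 4.81 and 4.40 in the control arrays, a difference of 0.27 (SE 0.207).

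H3, the core histone with the most studied tail modifications, was the type with the lowest median. All 9 H3 features had a difference below 0 (median -0.6), against 59.2% of all features. The groups overlapped in 0 of them, where 33.8% of all features had both miR204 values below both control values, and 7 were lower at an unadjusted p under 0.05, against 12.8%. H3C10 had 4.93 and 5.28 in the miR204 arrays and 6.05 and 6.09 in the control arrays, a difference of -0.965 (SE 0.168). H3C2 had 7.18 and 7.27 in the miR204 arrays and 7.94 and 8.04 in the control arrays, a difference of -0.765 (SE 0.143). In both the gap between the groups exceeded the distance between replicates. H3C11 had 9.40 and 9.46 in the miR204 arrays and 10.08 and 10.07 in the control arrays and differed by -0.645 (SE 0.139). H3C7 had 8.89 and 8.68 in the miR204 arrays against 9.39 in both control arrays (-0.605, SE 0.15). H3C8 had 8.23 and 8.47 in the miR204 arrays and 8.90 and 9.0 in the control arrays (-0.6, SE 0.155). The smallest difference of the type was that of H3C1, at -0.27 (SE 0.164).

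H2A, the partner of H2B, had a median difference of -0.355 over 14 features, all below 0, against 59.2% of all features, and 7 were lower at an unadjusted p under 0.05, against 12.8%. The median was -0.206 with quantile normalization and -0.17 with cyclic loess. H2AC4 had 8.37 and 8.11 in the miR204 arrays and 8.95 and 9.16 in the control arrays, a difference of -0.815 (SE 0.166). H2AC21 had 8.07 and 8.08 in the miR204 arrays and 8.61 and 8.72 in the control arrays (-0.59, SE 0.142). H2AC13 had 10.53 and 10.78 in the miR204 arrays and 11.22 and 11.25 in the control arrays (-0.58, SE 0.154). None of these 3 overlapped between groups. Both miR204 values lay below both control values in 11 of the 14 H2A features, against 33.8% of all features. H2AC8 had 9.42 and 9.41 in the miR204 arrays against 9.92 and 10.04 in the control arrays (-0.565, SE 0.142). H2AC11 had 10.78 and 10.63 in the miR204 arrays against 11.23 and 11.20 in the control arrays (-0.51, SE 0.145). At the other end, the groups overlapped for H2AC20 (-0.045, SE 0.15), H2AC6 (-0.09, SE 0.18) and H2AC1, the testis form of H2A (-0.07, SE 0.159). After quantile normalization the differences of H2AC20 and H2AC6 were 0.148 and 0.062.

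H4 genes, which with the exception of H4C7 encode one and the same protein, differed least. Their median was -0.29 over 15 features, or -0.197 with quantile normalization and -0.187 with cyclic loess. Of the 15, 11 lay below 0, which is 73.3%, against 59.2% of all features and 73.9% of the features above the median level. Lower at an unadjusted p under 0.05 were 5, against 12.8% of all features. H4C1 had 5.05 and 4.66 in the miR204 arrays and 5.54 and 5.76 in the control arrays, a difference of -0.795 (SE 0.184). H4C5 had 11.13 and 11.30 in the miR204 arrays and 11.75 and 11.72 in the control arrays (-0.52, SE 0.146). Both were without overlap. Over the 15 H4 features, 10 had both miR204 values below both control values, against 33.8% of all features. H4C14 and H4C15 are copies of each other, and their features read nearly the same. H4C14 had 8.87 and 8.96 in the miR204 arrays and 9.33 and 9.40 in the control arrays (-0.45, SE 0.142), and H4C15 had 8.96 and 8.91 in the miR204 arrays and 9.26 and 9.41 in the control arrays (-0.4, SE 0.145). With quantile normalization these differences were -0.247 and -0.197. The features need not be separate measurements. H4C9 had 5.62 and 5.72 in the miR204 arrays and 6.11 and 6.0 in the control arrays (-0.385, SE 0.144).

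The other end of the H4 group held 4 of the 5 members with a difference above 0. H4C8 had 8.78 and 9.40 in the miR204 arrays and 9.14 and 8.88 in the control arrays (0.08, SE 0.229). H4C4 had 7.38 and 7.12 in the miR204 arrays against 7.18 in both control arrays (0.07, SE 0.155). H4C16, the only member on chromosome 12, had 4.16 and 5.29 in the miR204 arrays and 4.52 and 4.51 in the control arrays (0.21, SE 0.337). In all 3 the control values lay inside the range of the miR204 values. H4C7, a divergent member of the family, lay among the dimmest 25% of features with 2.27 and 2.09 in the miR204 arrays and 2.11 and 2.13 in the control arrays. Without miR204 array 2, H4C8 and H4C16 differed by -0.23 and -0.355, and without miR204 array 1 by 0.39 and 0.775. Whether H4 differed from the other types was not tested.

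**Figure D2:**
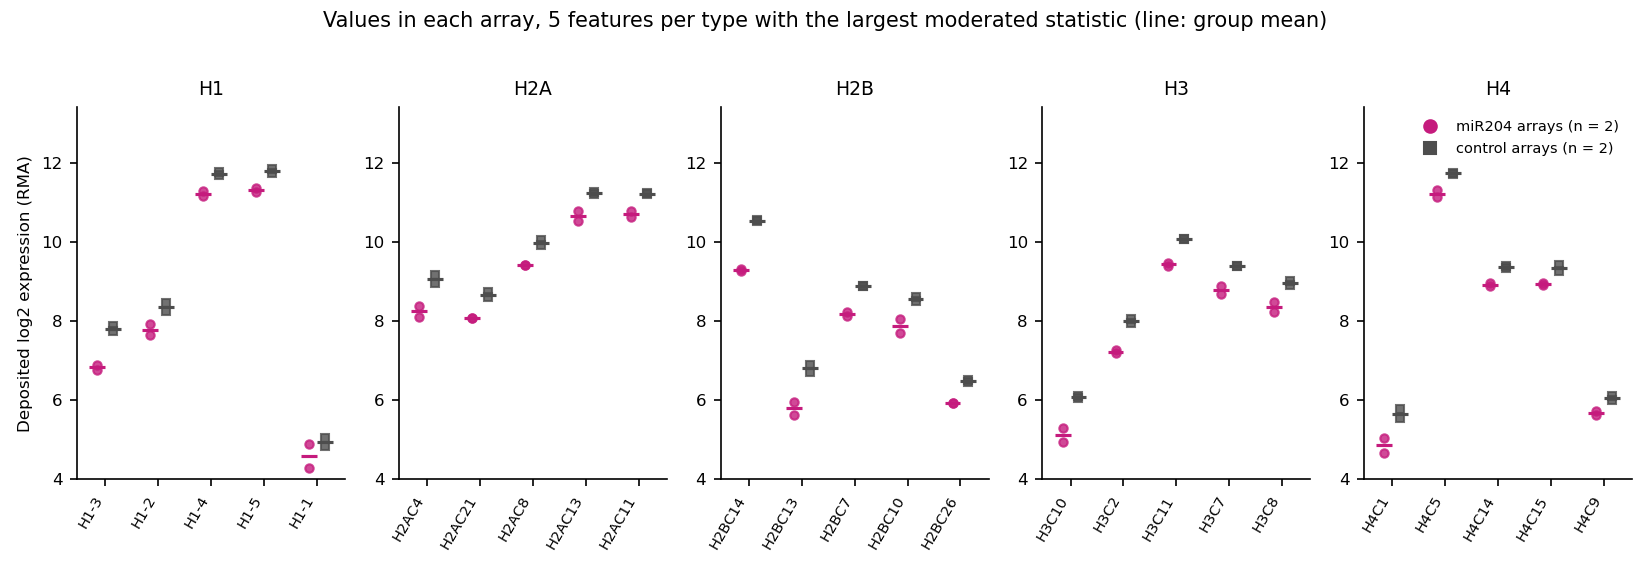
Deposited log2 expression in each array for the 5 members of each type with the largest moderated statistic, with miR204 arrays as circles to the left of control arrays as squares and a line at each group mean. The miR204 values lie below the control values for every gene shown except H1-1, whose groups overlap.

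By position, the members fell into 6 groups when neighbours more than 500 kb apart in RefSeq (GRCh38.p14) were separated. Chromosome 6 held 49 of them in 3 groups of 32, 5 and 12 genes. The median difference was -0.422 in the first, -0.445 in the second and -0.538 in the third of these, in the order of the chromosome. Chromosome 1 held a group of 9 genes with a median of -0.32, or -0.132 after quantile normalization, and a separate pair, H2AC25 and H2BC26, at -0.185 and -0.56. The third chromosome 6 group contained H2BC14, H2BC13, H3C10 and H2BC17, 4 of the 6 lowest differences of all members, next to H4C11 and H4C12 at -0.19 and -0.135. Genes with lower and with near-zero differences thus lay side by side within 1 group. H2BC17 had 6.54 and 5.95 in the miR204 arrays and 6.92 and 7.17 in the control arrays (-0.8, SE 0.222).

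**Figure D3:**
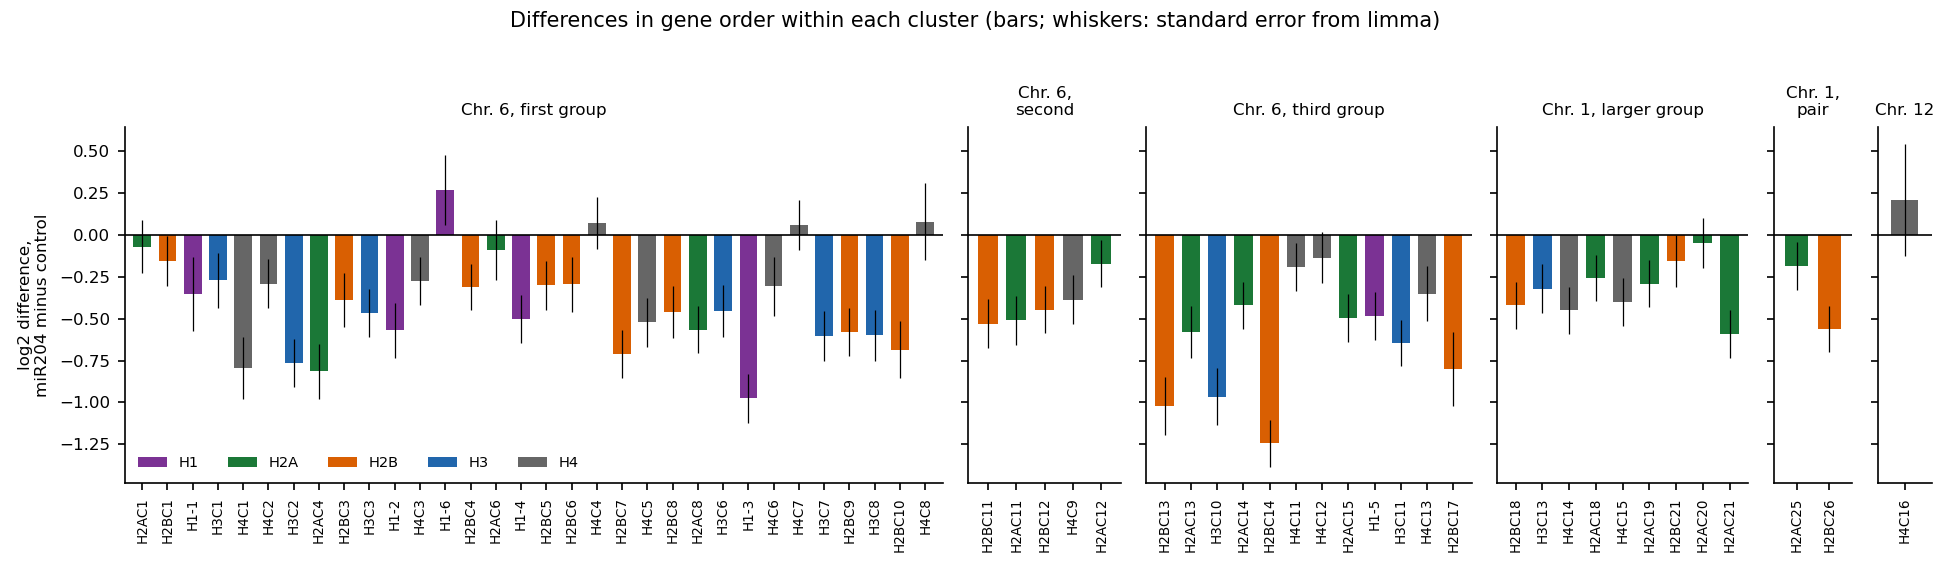
Difference in log2 expression, miR204 minus control, in the order of the genes along each chromosomal group, coloured by histone type, with the standard error from limma. The lowest bars, H2BC14 at -1.245 and H2BC13 at -1.02, stand in the third group of chromosome 6, where H4C11 and H4C12 are near -0.19 and -0.135.

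H2A and H2B genes are often arranged head to head around a shared stretch of promoter. Start sites on opposite strands within 1000 bases of each other gave 9 divergent pairs among the 57 members with a RefSeq promoter, 8 of them H2A with H2B. In H2AC14 and H2BC14, whose starts are 245 bases apart, the difference was -0.42 (SE 0.139) for H2AC14 and -1.245 (SE 0.139) for H2BC14. H2AC14 had 11.69 and 11.65 in the miR204 arrays and 12.09 in both control arrays. This pair had both the largest mean difference and the largest disagreement. In H2AC13 and H2BC13, 244 bases apart, the differences were -0.58 (SE 0.154) and -1.02 (SE 0.174). H2AC11 and H2BC11 differed by nearly the same amount, -0.51 (SE 0.145) and -0.53 (SE 0.147), as did H2AC8 and H2BC8 with -0.565 (SE 0.142) and -0.46 (SE 0.155). In H2AC6 and H2BC4 the differences were -0.09 (SE 0.18) and -0.31 (SE 0.138), and in H2AC20 and H2BC21 they were -0.045 (SE 0.15) and -0.155 (SE 0.157). In 7 of the 8 pairs the H2B gene had the lower difference, and the disagreement within pairs was not tested.

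The promoters of the genes that the results turn on are shown from RefSeq (GRCh38.p14), each 5′ to 3′ on the strand of the gene and ending at the base before the start of transcription. H2BC14 is given in full over 250 bases (chr6:27814772-27815021, plus strand), since it also holds the start region of H2AC14. The other stretches are of 150 bases and were chosen by difference. H2BC13 (chr6:27807930-27808079, minus strand) is the H2B gene with the next lowest difference. H2BC21 (chr1:149886683-149886832, minus strand) is an H2B gene with a difference near 0. H1-3 (chr6:26234988-26235137, minus strand) is the linker histone with the lowest difference. H4C5 (chr6:26204460-26204609, plus strand) and H4C4 (chr6:26189113-26189262, minus strand) are H4 genes with a lower and a near-zero difference. Capitals mark the motifs searched, on either strand: ATTTGCAT, the octamer bound by OCT1, CCAAT, the box bound by NF-Y, TATAAA, the TATA box, AAACACA, the H1 box, and GGTCCG, the core of an H4 promoter element. Motifs that overlap run together, as GGTCCG and CCAAT do in H2BC21. The only TATA match marked in H2BC14 is TTTATA, at position -219 from its start. It reads as TATAAA on the strand of H2AC14, whose start is 245 bases away.
H2BC14: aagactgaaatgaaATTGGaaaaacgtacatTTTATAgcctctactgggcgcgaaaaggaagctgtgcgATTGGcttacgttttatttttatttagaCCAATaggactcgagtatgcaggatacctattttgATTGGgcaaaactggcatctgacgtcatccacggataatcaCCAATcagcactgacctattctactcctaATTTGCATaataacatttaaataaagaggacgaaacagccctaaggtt
H2BC13: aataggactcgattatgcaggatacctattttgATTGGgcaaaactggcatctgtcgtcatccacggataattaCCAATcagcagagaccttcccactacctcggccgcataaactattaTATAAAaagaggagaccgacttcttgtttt
H2BC21: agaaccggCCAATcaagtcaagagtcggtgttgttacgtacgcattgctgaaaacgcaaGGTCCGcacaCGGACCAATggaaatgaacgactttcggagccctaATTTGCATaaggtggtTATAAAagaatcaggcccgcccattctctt
H1-3: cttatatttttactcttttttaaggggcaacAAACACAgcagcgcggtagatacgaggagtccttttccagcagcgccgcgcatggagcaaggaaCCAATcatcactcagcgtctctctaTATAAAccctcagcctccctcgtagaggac
H4C5: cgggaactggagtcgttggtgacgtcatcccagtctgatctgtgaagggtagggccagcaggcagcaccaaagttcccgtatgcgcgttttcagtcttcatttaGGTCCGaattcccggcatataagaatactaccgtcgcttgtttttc
H4C4: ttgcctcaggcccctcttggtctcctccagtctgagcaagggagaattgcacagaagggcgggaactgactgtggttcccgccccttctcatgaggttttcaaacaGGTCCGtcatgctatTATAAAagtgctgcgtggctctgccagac

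The octamer, the H1 box and GGTCCG were found mostly in windows of particular histone types. The windows of a head-to-head H2A and H2B pair share most of their bases, and both strands were searched. A motif can thus be counted for both genes of a pair. Over the 250 bases upstream of the start, in 60 promoter windows of the 57 genes, the octamer was present in 15 of 19 H2B windows, 8 of 13 H2A windows and 0 of the H1, H3 and H4 windows, against 1.63% of 35116 RefSeq promoters. The H1 box was found in 6 of 6 H1 windows and in no other member, against 4.82% of all promoters. GGTCCG was present in 12 of 13 H4 windows and in 1 H2A, 1 H2B and 1 H3 window, against 9.43%. CCAAT was present in 50 of 60 windows, against 32%, but in only 3 of 13 H4 windows. TATAAA was present in 41 of 60, against 10.7%. Within H2B the median was -0.452 for the 14 H2B genes with the octamer and -0.56 for the 3 without it. H2BC13, with no octamer in these letters, and H2BC14, with one, had the lowest differences of the H2B genes. H4C5 and H4C4 both carry GGTCCG and had differences of -0.52 and 0.07. H2BC14 and H2BC13 share an unbroken run of 93 identical bases in their upstream 250. The upstream 250 bases of H4C14 and H4C15 were identical, and those of H2AC18 and H2AC19 shared a run of 249 bases, with differences of -0.255 and -0.29.

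Members could also be set beside features of a like level. Of the 13 members with a mean level over 10, the median was -0.42, against -0.205 over the 605 features of the array at that level. The 5 members among the dimmest 25% of features (H2AC1, H2BC1, H3C6, H4C6 and H4C7) had a median of -0.155. At an unadjusted p under 0.05 in limma 1 of them, H3C6, was lower, which is 20%, against 12.8% of all features. No detection calls were used here, so a dim member cannot be told from an undetected one. With the arrays scaled again, the median of the members was -0.31 by quantile normalization and -0.276 by cyclic loess, where the median of all features was near 0 (-0.004 and 0.002). Named members whose difference shrank by over 1.5 times under at least one of these scalings were H1-2, H1-4, H1-5, H2AC8, H2AC11, H2AC13, H2AC14, H2AC21, H3C7, H3C8, H3C11, H4C5, H4C14 and H4C15, which then lay between -0.431 and -0.187.

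**Figure D4:**
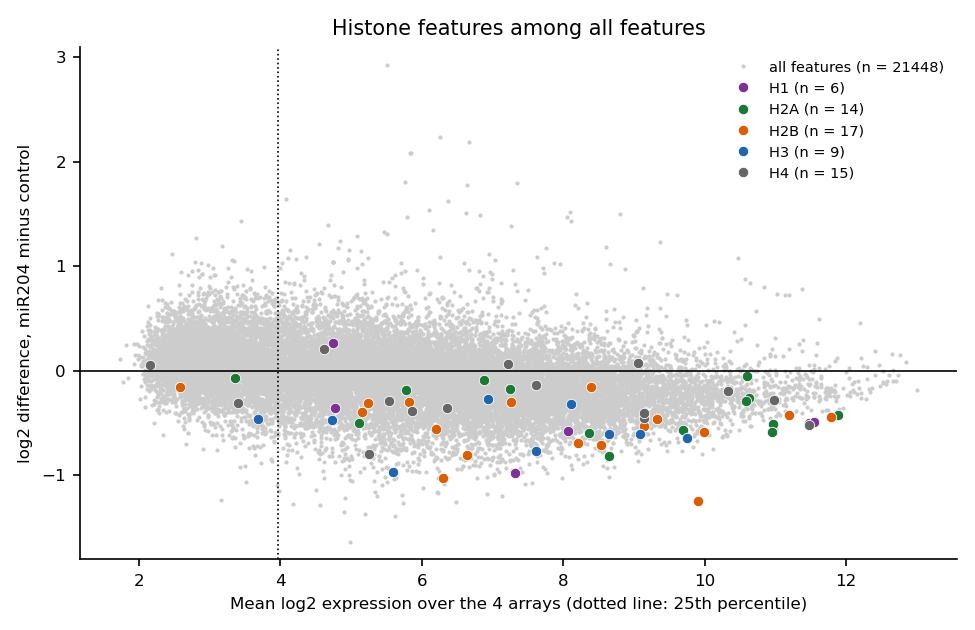
Difference in log2 expression, miR204 minus control, against mean log2 level over the 4 arrays, for all 21448 features in grey and the histone features in colour by type. The cloud of all features drops slightly toward high levels. Most histone features above the dimmest 25% lie in its lower part. The 5 in the dimmest 25% range from -0.455 to 0.06.

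Genes that act with histone genes in S phase were lower as well. All 26 measured genes of the S phase list, which included the replicative helicase subunits and nucleotide synthesis enzymes, were lower at an unadjusted p under 0.05 with no overlap between groups (median -0.628), beside 12.8% and 33.8% of all features, and 0 passed the adjusted threshold. Of these, SLBP and MCM2 also belong to the processing and chaperone lists. RRM2, a subunit of ribonucleotide reductase, had 9.59 and 9.64 in the miR204 arrays and 10.19 and 10.22 in the control arrays (-0.59, SE 0.139). PCNA, the sliding clamp of DNA polymerase, had 9.11 and 9.29 in the miR204 arrays and 9.79 and 9.74 in the control arrays (-0.565, SE 0.147). The part of cell cycle distribution in the histone values was not tested. In bulk RNA, fewer cells in S phase and less histone RNA per cell cannot be told apart.

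Transcription of histone genes is organised at the histone locus body. Of 12 measured genes of that list 7 were lower and 0 higher at an unadjusted p under 0.05, against 12.8% and 5.11% of all features, with a median of -0.462. NPAT, the coactivator of histone genes, had 6.14 and 6.09 in the miR204 arrays and 6.87 and 6.63 in the control arrays, a difference of -0.635 (SE 0.154, adjusted p = 0.164 in limma). CASP8AP2, also called FLASH, which links transcription to processing, had 5.92 and 6.25 in the miR204 arrays and 6.76 and 6.89 in the control arrays (-0.74, SE 0.169). The cell cycle factor E2F1 differed by -0.94 (SE 0.175) and cyclin E2, CCNE2, by -0.515 (SE 0.139). Cyclin E1, CCNE1, whose kinase phosphorylates NPAT, differed by -0.035 (SE 0.14). HINFP, the factor that binds the H4 promoter element, had 7.49 and 7.66 in the miR204 arrays and 7.17 and 7.33 in the control arrays, a difference of 0.325 (SE 0.152), and it did not pass.

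Of 25 measured genes of histone mRNA processing and decay, 9 were lower and 0 higher at an unadjusted p under 0.05 (median -0.25), against 12.8% and 5.11% of all features. SLBP, which binds the stem-loop, had 6.72 and 7.11 in the miR204 arrays and 7.55 and 7.53 in the control arrays (-0.625, SE 0.174). ERI1, an exonuclease that trims the stem-loop, differed by -0.67 (SE 0.199), and CPSF2, a subunit of the cleavage complex that cuts the transcript, by -0.61 (SE 0.15). SNRPB, an Sm protein, had the largest difference of the list (-0.725, SE 0.151). The subunits particular to the U7 particle differed by -0.095 (SE 0.15) for LSM10 and -0.41 (SE 0.223) for LSM11, and neither passed. ZNF473, a zinc finger protein of histone pre-mRNA processing, differed by -0.155 (SE 0.152). Of 26 histone chaperones and supply factors, 11 were lower and 0 higher (median -0.372), against the same shares of all features. Among them were CHAF1B, a subunit of the chromatin assembly factor CAF-1 (-0.695, SE 0.147), HJURP, the chaperone of the centromeric histone (-0.745, SE 0.149), and MMS22L, which acts at damaged forks (-0.775, SE 0.149). CHAF1A, another CAF-1 subunit, differed by -0.175 (SE 0.148). None of the genes of these lists passed the adjusted threshold.

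Replication-independent histone variants, which are made throughout the cell cycle or placed at special sites, were mixed. Of 13 measured variants, 5 were lower and 1 higher at an unadjusted p under 0.05, against 12.8% and 5.11% of all features, and the median was -0.155. H2AX, the variant phosphorylated at DNA breaks, had 9.66 and 9.64 in the miR204 arrays and 10.21 in both control arrays (-0.56, SE 0.139). CENPA, the centromeric H3, differed by -0.59 (SE 0.14), MACROH2A2 by -0.635 (SE 0.14) and H2AZ1 by -0.45 (SE 0.165). H3-3B, which encodes the H3.3 protein, had 10.80 and 10.83 in the miR204 arrays and 10.94 in both control arrays, a difference of -0.125 (SE 0.139). Also near 0 were MACROH2A1 (-0.155, SE 0.145), H2AZ2 (-0.195, SE 0.155) and H2AJ (0.095, SE 0.143). The higher gene was H1-7, a spermatid linker histone, at 0.57 (SE 0.239). The difference between the variants and the replication-dependent genes was not tested.

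**Figure D5:**
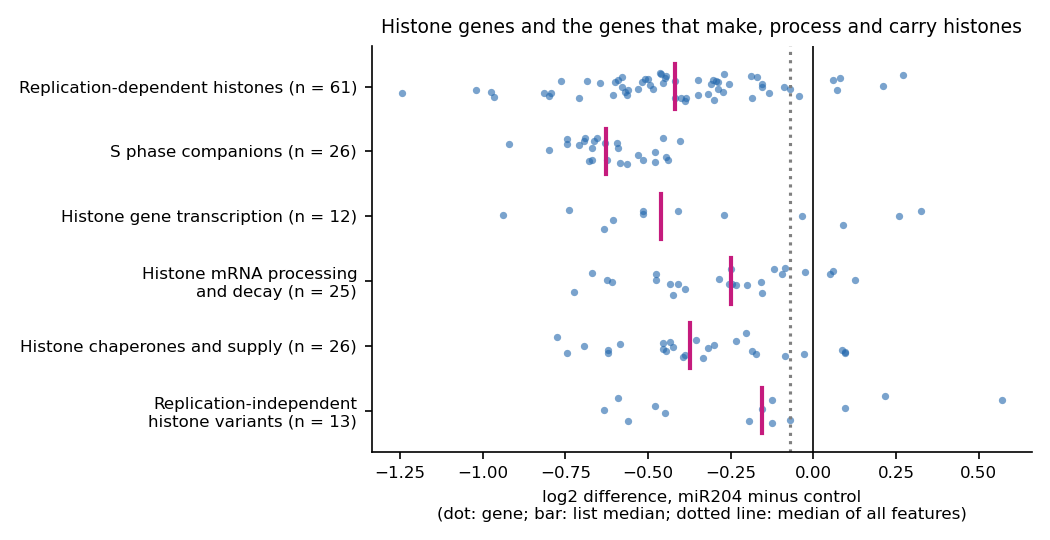
Difference in log2 expression, miR204 minus control, for each gene of the replication-dependent histones and 5 related lists, with the list median as a bar and the median of all features as a dotted line at -0.07. The S phase genes all lie below -0.4, while the replication-independent variants spread around their median of -0.155.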

How the data were processed

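Total RNA of 2 miR204 and 2 control samples was hybridised to Clariom S arrays after labelling with the GeneChip WT PLUS kit, per the labels' protocols. The deposited log2 values came from RMA, which the authors ran in the Transcriptome Analysis Console (version 4.0), per the submitters' processing notes. RMA parameters and the genome build are not given in the sources used here. The table held 21448 features, values of 1.61 to 13.1 and no missing value, and 17709 features had 1 gene symbol in the platform annotation. All 61 members matched RefSeq by gene ID.

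The 2 groups were fitted in limma 3.58.1 under R 4.3.3 (lmFit and eBayes, two-sided, no filter on low values, 2 residual and 4.78 prior degrees of freedom), with Benjamini-Hochberg adjustment over all features and a threshold of 0.05. A permutation test of 2 against 2 arrays cannot go below an exact p of 0.333 and was not run. Lists were described by counts and medians, without a test of the list. The members, the lists and the rule for naming genes (per type the 5 largest moderated statistics, every member above 0 and both genes of the divergent pairs with the largest mean difference and disagreement; in related lists the largest statistics and some fixed genes) were chosen with earlier results of these data known. Other members were added to the text for ranges. Tried alternatives were other priors, normalizations, filters, the replicate block, no moderation, and leaving out each array.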

Additional observations from a re-analysis of the deposited data

How the results depend on the processing

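Under all 14 alternatives the median of the histone members stayed below 0 and most members lay below 0 (52 of 61 at the fewest in fits of all members). The median was -0.31 with quantile normalization, with or without the level-dependent prior, -0.355 with equal array medians, -0.276 with cyclic loess, -0.448 over features above the 25th percentile of level, and -0.455 above the median level. Leaving out 1 array gave medians of -0.46 to -0.435. The count of members lower at an unadjusted p under 0.05, 35 of 61, was 21 with cyclic loess, against 6.93% of all features, and 14 to 33 when 1 array was left out: 32 and 33 without a miR204 array, 16 and 14 without a control array. Those fits have 1 residual degree of freedom fewer, and the lone array of a group is taken to vary like the other group.

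The number of features past an adjusted p of 0.05, 11 of 21448, was 1525 with the level-dependent prior, 559 with that prior after quantile normalization, 38 above the 25th percentile of level, 1022 above the median level, 4 without moderation, 0 with quantile normalization, and 0 in each fit without 1 array (0 to 0). With the replicate block it was 0, and 33 members were lower at an unadjusted p under 0.05, against 10.7% of all features. Same-numbered arrays deviated from their group means with a correlation of 0.0058. The titles give only a replicate number. This value cannot show whether same-numbered arrays shared a culture or a day.

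Members near 0 changed sign. H4C7 differed by -0.018 with quantile normalization, with or without the level-dependent prior, by -0.048 with cyclic loess and ranged from -0.03 to 0.15 when 1 array was left out. In the same fits H4C4 ranged from -0.06 to 0.2, H4C8 from -0.23 to 0.39, being -0.05 without control array 2, and H4C16, the chromosome 12 gene, from -0.355 to 0.775. The cause was not tested. After quantile normalization 8 members lay above 0, H2AC20, H2BC21, H2AC6 and H4C12 among them. The 2 arrays a group limit the precision, and no detection calls were used for dim members.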
